A study of Mus musculus with 8 samples.

Results

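The Hox genes examined here are all genes of the 4 mouse Hox clusters that carry a probe on the array, taken as the non-control probes whose gene name in the scanner files is Hoxa, Hoxb, Hoxc or Hoxd followed by a number. They comprised 44 probes for 39 genes, among 55681 non-control probes with 34844 different names in all. The arrays held RNA of medium spiny neurons (MSNs) from male mice aged 4 weeks; these cells are inhibitory, make up most of the striatum and are lost in Huntington's disease. There were 4 arrays of R6/2;Scn4b-Venus mice and 4 arrays of WT;Scn4b-Venus mice, referred to below as R6/2 and WT. R6/2 mice carry a transgene in which the human huntingtin promoter drives the first exon of that gene with an expanded CAG repeat, and model Huntington's disease. Both genotypes carried Scn4b-Venus, a fluorescent reporter named for the sodium channel subunit gene Scn4b, and cells positive for Venus and negative for the dead-cell dye propidium iodide (PI) had been purified. Each array started from about 4 to 20 ng of total RNA and was hybridised with 1 dye. The labels do not say whether each array is 1 mouse or a pool, so p-values measure the spread between these samples.

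Hox genes encode homeodomain transcription factors that give cells their position along the body axis. They lie in clusters in which the order of the genes follows the order in which they are switched on, and genes with the same number in different clusters are paralogues. In the nervous system they are used in the hindbrain and spinal cord, whereas the forebrain, which includes the striatum, develops without them. There they are textbook targets of the Polycomb repressive complexes: PRC2 methylates histone H3 at lysine 27 and PRC1 binds that mark and ubiquitinates histone H2A. Loss of Polycomb repression is known to release Hox and other developmental genes, and the question put to the arrays was whether Hox signal was higher in R6/2 than in WT MSNs.

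The probes are 60 bases long and read the sense strand of the transcript. Those below are shown because their sequence lies in the part of the protein that Hox genes share, or because they read the same gene differently. Capitals in the first 3 mark codons of the recognition helix of the homeodomain, the part that enters the major groove of DNA.

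Hoxc11: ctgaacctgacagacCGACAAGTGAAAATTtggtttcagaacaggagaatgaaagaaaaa
Hoxc12: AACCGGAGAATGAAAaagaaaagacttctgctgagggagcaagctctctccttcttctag
Hoxd10: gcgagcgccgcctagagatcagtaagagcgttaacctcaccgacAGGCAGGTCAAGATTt

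Codons for such a stretch of helix were found in 11 of all probes on the array (0.0198%), and 4 of those were Hox probes. In the Hoxa6 probe capitals mark the codons of the hexapeptide, the short motif that binds Pbx cofactors, and in the first Hoxa13 probe (A_55_P1970075) they mark codons inside the homeodomain. The second Hoxa13 probe (A_51_P303316) starts 124 bases further downstream on the same strand. For it and Hoxa7, 30 bases are shown with the longest run of purines in capitals.

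Hoxa6: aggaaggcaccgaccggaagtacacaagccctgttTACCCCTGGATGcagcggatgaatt
Hoxa13 (A_55_P1970075): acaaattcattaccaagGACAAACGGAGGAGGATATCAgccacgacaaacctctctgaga
Hoxa13 (A_51_P303316): cagagggcagcttGAAGAAAcgcttaagga
Hoxa7: attgattttagttacaaaaatGGGGGGAAA

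On mm9, the build of the file headers, the Hoxa6 probe lies at chr6:52158194-52158253, the first Hoxa13 probe at chr6:52208980-52209039, the second at chr6:52208856-52208915 and the Hoxa7 probe at chr6:52165626-52165685, all on the minus strand. The Hoxc12 probe lies at chr15:102768889-102768948, the Hoxc11 probe at chr15:102787022-102787081 and the Hoxd10 probe at chr2:74532280-74532339, on the plus strand. A Hoxa3 probe and a Hoxb3 probe each shared a run of 20 bases with a probe of another name, and no other Hox probe did.

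Most Hox probes were dim. A probe was taken as measured on an array when the scanner software marked it well above background, and it was tested when that held on 4 or more of the 8 arrays. This held for 17 Hox probes (38.6%), covering 16 genes, against 74.3% of all probes. On no array was it true of 16 Hox probes (36.4%), against 6698 of all 55681 probes, and 14 genes had no probe above background on any array. A further 11 probes passed on 1 to 3 arrays, and 4 passed on all 8: those of Hoxa6, Hoxa7, Hoxc5 and the second Hoxa13 probe. A probe that is not well above background gives only an upper limit on its transcript, and the signal of a passing probe does not by itself identify the transcript bound.

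The clusters differed in how many probes passed. In Hoxa, 6 of 14 probes passed, for Hoxa2, Hoxa6, Hoxa7, Hoxa9 and both probes of Hoxa13. In Hoxb only Hoxb6 and Hoxb9 passed, 2 of 11 probes, and 8 of its 10 genes were above background on no array. In Hoxc 4 of 9 passed, for Hoxc5, Hoxc8, Hoxc9 and Hoxc12, and in Hoxd 5 of 10, for Hoxd3, Hoxd10, Hoxd11, Hoxd12 and Hoxd13. By paralogue number, 2 of 14 probes passed in groups 1 to 4, which pattern the hindbrain and neck, 5 of 11 in groups 5 to 8, and 10 of 19 in groups 9 to 13, which pattern the lower spinal cord, limbs and urogenital tract. These counts are a description and were not tested.

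**Figure D1:**
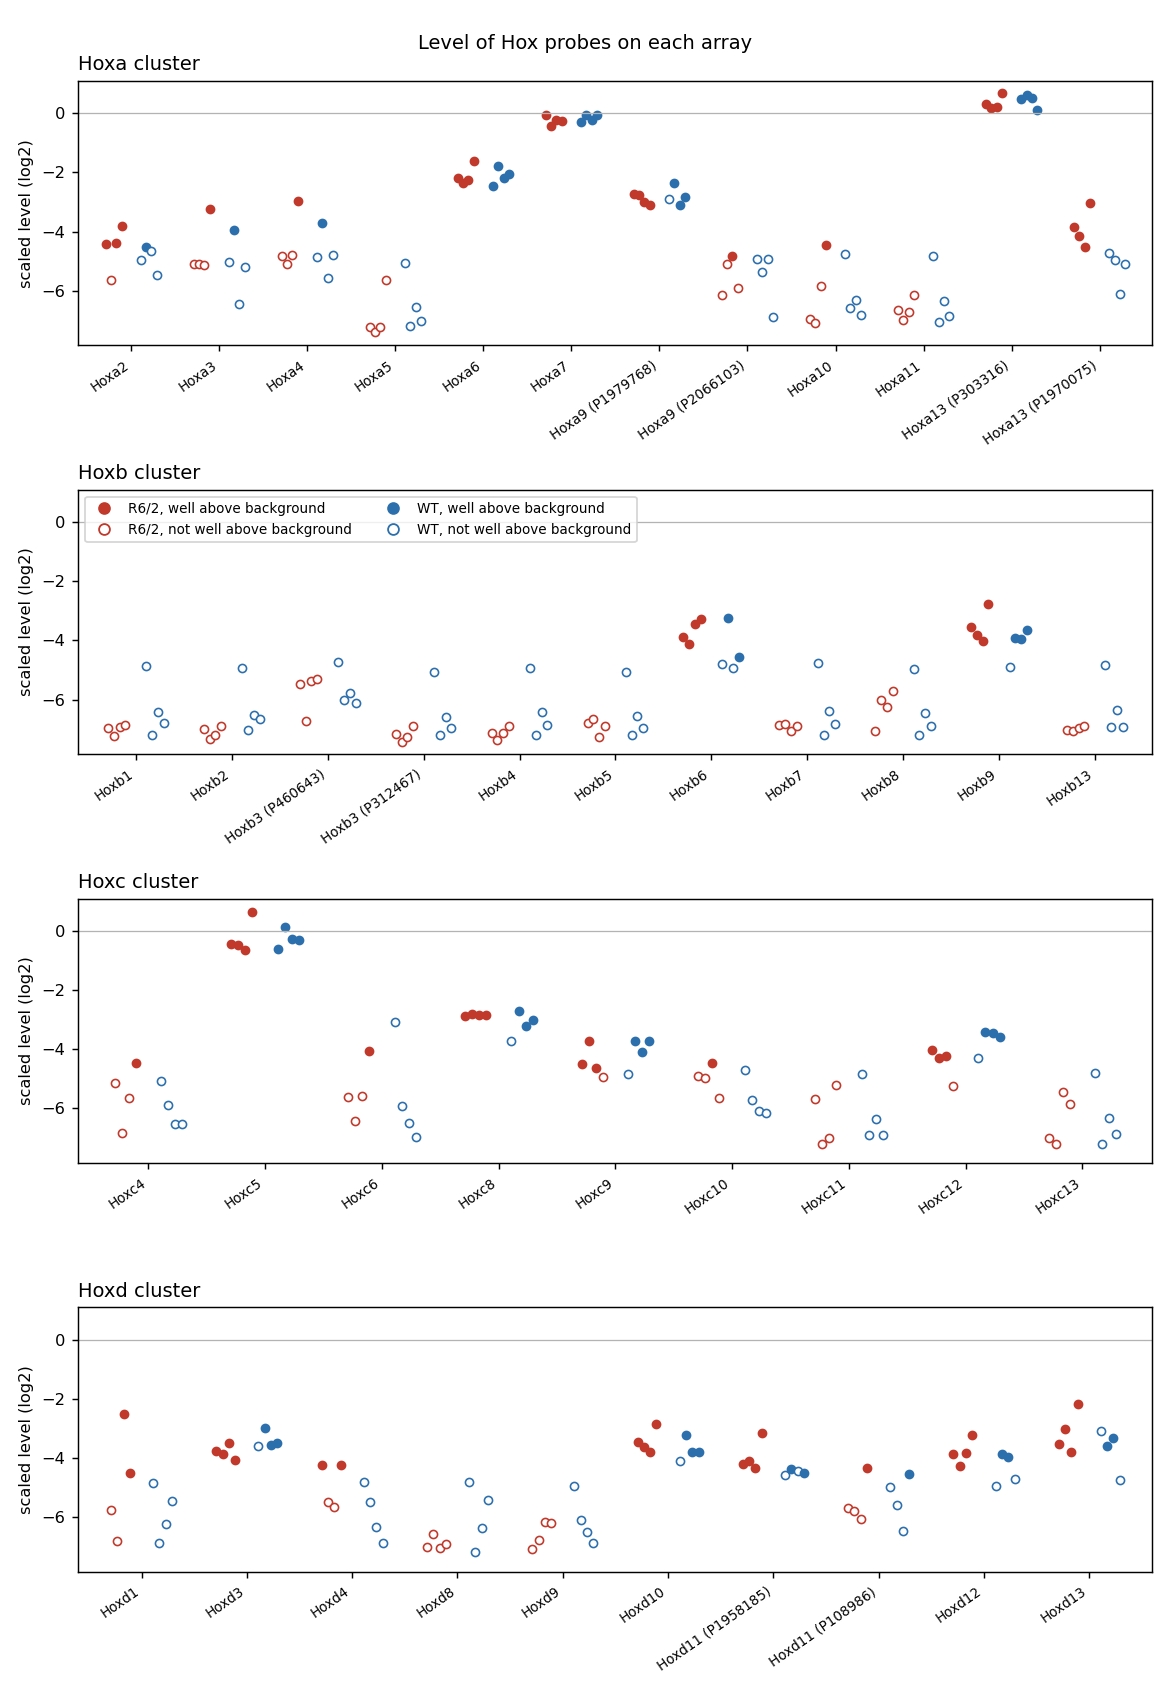
Scaled level (log2 intensity minus the array's 75th percentile) of Hox probes on each array, by cluster, with the R6/2 arrays left of the WT arrays for each probe; filled points are well above background and open points are not. The 4 probes filled on all 8 arrays are those of Hoxa6, Hoxa7, Hoxc5 and Hoxa13 (P303316), and most of Hoxb is open throughout.

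Counted per array, 18, 17, 20 and 24 Hox probes were well above background on the R6/2 arrays, against 4, 18, 13 and 15 on the WT arrays. The mean was 19.75 ± 3.1 probes in R6/2 and 12.5 ± 6.0 in WT (SD, n = 4 each), and the ranges overlapped, because WT replicate 2 had as many as R6/2 replicate 1. The share of all probes ran the same way: between 74.0% and 78.8% of all probes were above background on the R6/2 arrays, against between 50.1% and 76.2% on the WT arrays. WT replicate 1 stood apart, with 50.1% of all probes above background and a median scaled level of its negative control spots of -4.87. That median lay between -7.24 and -6.90 on the R6/2 arrays and between -7.19 and -6.43 on the other WT arrays. WT replicate 1 had 4 Hox probes above background at its median of -4.87. R6/2 replicate 4 had 24 and WT replicate 4 had 15, each at a median of -6.90. The part of background in the difference between genotypes was not tested. Over the 7 arrays without WT replicate 1, 17 Hox probes were above background on 4 or more.

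**Figure D2:**
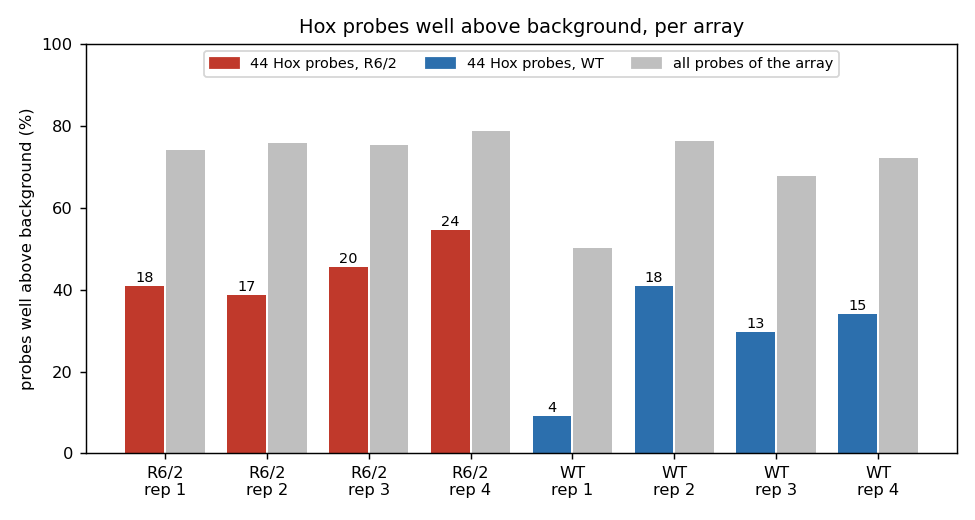
Percent of the 44 Hox probes (coloured, with the number of probes above each bar) and of all non-control probes (grey) well above background on each array, R6/2 arrays on the left and WT arrays on the right. WT replicate 1 is the lowest in both measures, with 4 Hox probes and 50.1% of all probes, and R6/2 replicate 4 is the highest in both, with 24 and 78.8%.

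Levels below are log2 of the processed intensity minus the 75th percentile of the array, so that 0 is that percentile, and differences are R6/2 minus WT on this log2 scale. They compare genotypes within a probe, since levels of different probes depend on how each hybridises. No Hox probe differed between R6/2 and WT at a limma adjusted p under 0.05, where 0.00242% of all 41379 tested probes passed, a single probe that was not a Hox probe. The lowest adjusted p of a Hox probe was 0.606. At an unadjusted p under 0.05 the Hox probes numbered 2 of 17, with 1 higher and 1 lower in R6/2, against 7.02% of all tested probes (3.97% higher and 3.05% lower). The values of the 4 R6/2 and 4 WT arrays did not overlap for 2 Hox probes, both higher in R6/2, against 4.57% of all tested probes, made up of 2.31% higher and 2.26% lower in R6/2. A count of 2 among 17 probes is too small to be set against these shares.

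Of the 17 differences, 11 were positive and 6 negative, with a median of +0.30 and a range of -0.77 to +1.34; over all tested probes 55.5% were positive and the median was +0.05. The Hox median moved by over 1.5 times when any of 4 arrays was left out. Without WT replicate 1 it was +0.12 with 9 of 17 positive (all probes +0.02, 51.6% positive), and without R6/2 replicate 4 it was +0.09 with 9 of 17 positive (all probes +0.02, 51.9% positive). It was +0.15 with 11 of 17 positive without WT replicate 4, and +0.46 with 12 of 17 positive without WT replicate 2. R6/2 replicate 4 was the highest R6/2 array for 11 of the 17 Hox probes, against 34.3% of all tested probes, and WT replicate 1 was the lowest WT array for 11 of them, against 35.8%. WT replicate 2 was the highest WT array for 12 of the 17, against 38.3%. R6/2 replicate 4 was the only array on its slide, so its slide and its sample cannot be told apart. With normexp, a model-based correction for the local background of each spot, here with an offset of 50 added to every intensity, the median was +0.03. Mean intensities of the tested Hox probes ran from 13.1 (Hoxa2) to 457 (second Hoxa13 probe). Such an offset by itself shrinks the log2 differences of dim probes, here and in the normexp values below. Over the 4 probes above background on all 8 arrays the median was -0.03. Without the filter on background, all 44 Hox probes gave 23 positive and 21 negative differences. Their median was +0.03 (all probes -0.01, 49.5% positive). Of these 44 probes, 16 were above background on no array. There a difference can follow the backgrounds of the arrays, and that of WT replicate 1 was the highest. The unfiltered count and median are therefore no check on the differences of the tested probes.

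**Figure D3:**
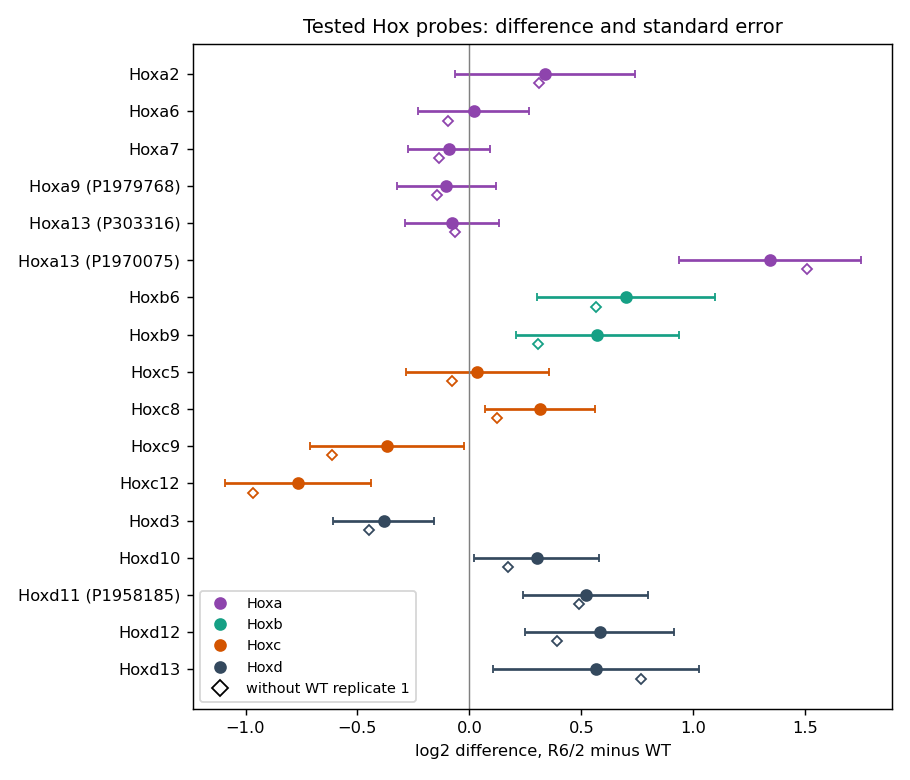
Difference R6/2 minus WT (log2) of the 17 tested Hox probes with its standard error (bars), coloured by cluster, and the same difference without WT replicate 1 (open diamonds). The differences run from -0.77 for Hoxc12 to +1.34 for Hoxa13 (P1970075), and 11 of them are positive.

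The 6 tested Hoxa probes held both the probe with the highest difference of all Hox probes and others near 0. Hoxa13 directs the formation of digits and of the urogenital tract and is the last gene of its cluster. Its first probe (A_55_P1970075) was at -3.86, -4.14, -4.53 and -3.02 in R6/2 MSNs, against -4.74, -4.96, -6.12 and -5.10 in WT MSNs. It was well above background on all 4 R6/2 arrays and on none of the WT arrays, and the groups did not overlap. WT gives only a limit. Each WT array was set to the higher of the probe's signal and the lowest signal called well above background there. On WT replicate 1 that lowest signal was -2.78, above every R6/2 value of this probe. The R6/2 mean was then 1.19-fold that of WT, a figure without an error that does not give a minimum. The fitted difference of the measured values was +1.34 (SE 0.41, unadjusted p = 0.010, adjusted p = 0.606), so it did not pass. It was +1.51 without WT replicate 1, +1.05 without R6/2 replicate 4 and +0.11 with normexp. This probe entered the test only through the R6/2 arrays, where it was high. Its p, and its place in the counts of positive differences, of unadjusted p under 0.05 and of groups without overlap, rest on that choice and are not support for a difference.

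The second Hoxa13 probe (A_51_P303316) gave no such pattern. It was at 0.33, 0.16, 0.22 and 0.68 in R6/2, against 0.47, 0.62, 0.51 and 0.11 in WT, above background on all 8 arrays. The groups overlapped, and the difference was -0.08 (SE 0.21, adjusted p = 0.958). Both probes name the same gene and start 124 bases apart, and their differences disagree. Hoxa7, which acts in the thoracic region, was at -0.05, -0.45, -0.24 and -0.26 in R6/2, against -0.29, -0.06, -0.22 and -0.05 in WT. These overlapped almost fully, with a difference of -0.09 (SE 0.18, adjusted p = 0.936). The remaining tested Hoxa differences were +0.34 for Hoxa2, which patterns the hindbrain and the pharyngeal arches, +0.02 for Hoxa6 (-0.09 without WT replicate 1) and -0.10 for Hoxa9, best known in blood-forming cells. For Hoxa2 the difference lay between +0.09, without R6/2 replicate 4, and +0.70, without R6/2 replicate 2. The median over the 6 tested Hoxa probes was -0.03.

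Hoxb6 and Hoxb9, which act in the trunk, were the only Hoxb genes tested. Hoxb6 was at -3.90, -4.12, -3.46 and -3.27 in R6/2, against -4.80, -3.25, -4.93 and -4.57 in WT. The highest of the 8 values was a WT array, and the difference was +0.70 (SE 0.40, adjusted p = 0.767). Without that array, WT replicate 2, it was +1.08 (unadjusted p = 0.0042, adjusted p = 0.582). Hoxb9 was at -3.56, -3.80, -4.02 and -2.75 in R6/2, against -4.90, -3.91, -3.94 and -3.66 in WT, with a difference of +0.57 (SE 0.36, adjusted p = 0.788). Its groups overlapped as well, and the difference was +0.31 without WT replicate 1 and also without R6/2 replicate 4. Hoxb1, the first gene of the cluster, which is used in the hindbrain, was printed in 10 spots per array and only 4 of its 80 spots were well above background.

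In Hoxc, the only probe of the clusters with an unadjusted p under 0.05 for a lower level in R6/2 was that of Hoxc12. It was at -4.02, -4.30, -4.24 and -5.23 in R6/2, against -4.29, -3.40, -3.45 and -3.58 in WT, and 3 arrays of each genotype were above background. The WT array at -4.29 fell among the R6/2 values, and the difference was -0.77 (SE 0.33, unadjusted p = 0.046, adjusted p = 0.705). It was -0.50 without R6/2 replicate 4 and -0.32 with normexp. Without WT replicate 1, the array at -4.29, which was not above background, it was -0.97, and with quantile normalization it was -1.07. Hoxc5, which acts in the neck region, was at -0.44, -0.47, -0.66 and 0.63 in R6/2, against -0.61, 0.13, -0.29 and -0.31 in WT. R6/2 replicate 4 lay above the other 7 arrays. The difference was +0.04 (SE 0.32, adjusted p = 0.988), and it turned to -0.25 without R6/2 replicate 4, -0.08 without WT replicate 1 and -0.11 when arrays were weighted by their agreement with the rest.

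Hoxc8, which specifies motor neuron pools of the forelimb, was at -2.88, -2.80, -2.85 and -2.86 in R6/2, against -3.74, -2.70, -3.20 and -3.0 in WT. The R6/2 arrays lay close together, and the WT arrays lay on both sides of them. The difference was +0.31 (SE 0.24, adjusted p = 0.820), it was +0.12 without WT replicate 1, and it was -0.02 when every value below the highest of the arrays' lowest well-above-background signals was set to it. That floor was -2.78, and every Hoxc8 value but that of WT replicate 2 lay below it, so the -0.02 rests on that array alone. Hoxc9, which sets the thoracic identity of motor neurons, had a difference of -0.37 (adjusted p = 0.856), which lay between -0.61 and -0.21 when 1 array was left out. Among the Hoxc genes that were not tested, Hoxc4 and Hoxc6 were above background on R6/2 replicate 4 alone and Hoxc10 on R6/2 replicate 3 alone.

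Of the 5 tested Hoxd differences, 4 were positive, with a median of +0.52. That median was +0.25 without R6/2 replicate 4, +0.28 without WT replicate 4 and +0.03 with normexp. Hoxd11, which acts in the forearm and the kidney, was at -4.21, -4.10, -4.34 and -3.16 in R6/2 (A_55_P1958185), against -4.57, -4.36, -4.44 and -4.52 in WT. It was above background on 4 R6/2 and 2 WT arrays, and the groups did not overlap, though the nearest values of the 2 genotypes were -4.34 and -4.36. The difference was +0.52 (SE 0.28, unadjusted p = 0.099, adjusted p = 0.753). It was +0.26 without R6/2 replicate 4 and -0.04 with normexp. The other Hoxd11 probe, above background on 1 array of each genotype and not tested, had a difference of -0.08.

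Hoxd13, which shapes the digits, was at -3.52, -3.01, -3.80 and -2.18 in R6/2, against -3.09, -3.61, -3.32 and -4.75 in WT. The groups overlapped, and the difference was +0.57 (SE 0.46, adjusted p = 0.830). It was +0.25 without R6/2 replicate 4 and +0.21 without WT replicate 4. Hoxd10, which acts in lumbar motor neurons, was at -3.45, -3.61, -3.78 and -2.86 in R6/2, against -4.11, -3.22, -3.78 and -3.78 in WT, with a difference of +0.30 (SE 0.28, adjusted p = 0.856). Its groups overlapped too, and the difference was +0.11 without R6/2 replicate 4, +0.17 without WT replicate 1 and +0.47 without WT replicate 2. Hoxd12 had a difference of +0.58 and Hoxd3, which patterns the neck vertebrae, of -0.38, with adjusted p of 0.768 and 0.772; that of Hoxd3 was -0.25 without WT replicate 2.

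Hoxd1 and Hoxd4 were above background on 2 R6/2 arrays each and on no WT array. Hoxd1 was at -5.75, -6.79, -2.52 and -4.50 in R6/2, against -4.83, -6.86, -6.24 and -5.44 in WT, with replicates 3 and 4 of R6/2 above background. Hoxd4 was at -4.23, -5.49, -5.65 and -4.25 in R6/2, against -4.80, -5.48, -6.33 and -6.88 in WT, with replicates 1 and 4 of R6/2 above background. Both sets of values overlapped between the genotypes, and neither probe was tested.

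**Figure D4:**
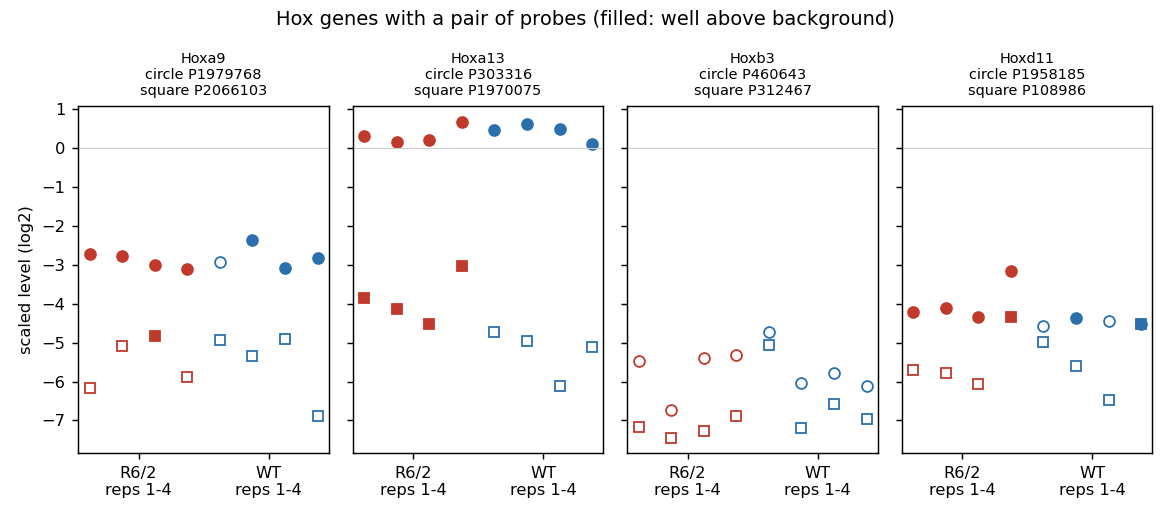
Scaled level (log2) of 4 Hox genes with a pair of probes on each array, R6/2 arrays left of WT arrays; circles and squares are the probes named above each panel, and filled symbols are well above background. For Hoxa13 the squares are filled on the 4 R6/2 arrays alone while the circles are filled on all 8 arrays and overlap between the genotypes.

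There were 5 genes with a pair of probes, and in only 1, Hoxa13, were both tested. For Hoxa9 the tested probe had a difference of -0.10 and its partner, above background on 1 array, +0.03. Both Hoxb3 probes were above background on no array. The authors' deposited table of all probes lists the same 44 Hox probes, 23 as up and 21 as down; 1 of them, Hoxa13 (A_55_P1970075), has an uncorrected p under 0.05 there (0.0234), and the lowest corrected p of a Hox probe in the authors' deposited table is 0.836.

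The clusters also hold probes that are not named as Hox genes. Between the first and last Hox probe of each cluster lay 39 such probes, of which 18 were above background on 4 or more arrays and 13 on all 8. Of these 18, 14 lay in Hoxb, where only 2 Hox probes passed, and most were annotated as long intergenic RNAs. Several of the Hoxb probes lay in the same annotated span, some on opposite strands, so 14 is not a count of separate transcripts. Their differences ran from -0.44 to +0.57, and the lowest adjusted p was 0.733. None of the 18 had an unadjusted p under 0.05, against 7.02% of all tested probes, and in none were the groups free of overlap, against 4.57%. The following were chosen after their values were seen. The Hoxa11 antisense RNA (Hoxa11as) averaged -2.35 in R6/2 and -2.10 in WT and was above background on all 8 arrays, while Hoxa11 itself, printed in 10 spots per array, was above background on none. Of 5 probes named HOTAIR, the antisense RNA of the Hoxc cluster that is known in human cells to bind PRC2, 1 was tested, with a difference of +0.26.

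The promoters of Hox genes are known to be rich in CpG, the dinucleotide whose islands attract PRC2 in mammals. In the 300-base windows around the start sites given by RefSeq (GRCm38.p6), 24 promoters of 22 Hox genes were found. They held a median of 14.5 CG dinucleotides (range 4 to 45), against 7 over all 32851 promoters, and 34.6% of all promoters held at least as many. CG reads the same on both strands. The 11 promoters of the 10 Hox genes with a tested probe had a median of 20, and the 13 promoters of the 12 without one a median of 14. The windows differ between start sites of a gene, and these counts were not tested.

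No tested member of the Polycomb machinery passed at the adjusted threshold. All 15 PRC2 genes were tested, with 7 differences positive, 8 negative and a median of -0.03. At an unadjusted p under 0.05, 1 was higher and 3 were lower, against 3.97% higher and 3.05% lower of all tested probes. The groups did not overlap for 1 gene higher and 3 genes lower in R6/2, against 2.31% and 2.26% of all tested probes. Epop, an accessory subunit that links PRC2 to the Elongin BC complex, was at -3.01, -2.42, -2.51 and -2.93 in R6/2, against 0.64, -1.40, -1.54 and -1.32 in WT, a difference of -1.81 (adjusted p = 0.567) without overlap. Its difference was -1.30 without WT replicate 1, the highest WT array. Phf1, an accessory subunit that reads methylated histone, had a difference of +1.27 (adjusted p = 0.568), and Aebp2, another accessory subunit, of -0.98 (adjusted p = 0.590). Among the core subunits, the methyltransferase Ezh2 had +0.49, the scaffold Eed +0.24 and Suz12 +0.10, each with overlap between the genotypes. Without WT replicate 1 these were +0.79, +0.11 and +0.16 in the same order. Ezh1, the methyltransferase of non-dividing cells, had -0.99 on the probe with the highest signal (adjusted p = 0.604). It was among the genes lower at an unadjusted p under 0.05, while its 3 other probes ran from -0.77 to +0.57.

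Of 25 PRC1 genes, 24 were tested, with 16 positive, 8 negative and a median of +0.21 (+0.13 without WT replicate 1). Cbx2 was above background on at most 3 arrays and was not tested. Cbx8, a chromodomain subunit that binds methylated lysine 27, was the only one with an unadjusted p under 0.05. It was at -3.72, -3.71, -2.82 and -3.51 in R6/2, against -4.07, -4.92, -4.16 and -4.73 in WT (adjusted p = 0.586). Cbx8 was above background on all 4 R6/2 arrays and on no WT array. With the WT arrays set as for the first Hoxa13 probe, the R6/2 mean was 1.60-fold that of WT, again without an error. Like that probe, Cbx8 entered the test only through the R6/2 arrays, so its p is not support for a difference. The ubiquitin ligase Rnf2 had a difference of +0.85 and the chromodomain subunit Cbx6 of -0.49. Of 15 genes for the opposing enzymes, the lysine 27 demethylases and the trithorax group, 14 were tested, 7 positive and 7 negative, with a median of +0.01. The demethylases Kdm6a and Kdm6b had +0.93 (adjusted p = 0.634) and +1.12 (adjusted p = 0.740), and the methyltransferase Kmt2d +0.38. The 9 genes for TALE cofactors, the homeodomain partners of Hox proteins, were all tested, with 5 positive, 4 negative and a median of 0.00, and none had an unadjusted p under 0.05. Without WT replicate 1, 2 were positive and 7 negative with a median of -0.11. Among them Pknox1 had -0.74, Meis2 -0.36 and Meis1 +0.76.

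Other developmental regulators that Polycomb represses in most tissues were set beside the Hox genes. Of 87 such genes, 47 were tested and 24 were above background on no array. Of the tested, 28 differences were positive and 19 negative with a median of +0.07, and without WT replicate 1 there were 22 positive and 25 negative with a median of -0.01. At an unadjusted p under 0.05 there were 3, each higher in R6/2, against 3.97% of all tested probes, and none passed after adjustment. The secreted signal Wnt10b was at -1.66, -1.92, -1.82 and -1.93 in R6/2, against -4.81, -3.29, -2.68 and -3.06 in WT, a difference of +1.63 (adjusted p = 0.560) without overlap; it was +1.18 without WT replicate 1, which was not above background. The heart regulators Hand1 and Tbx20 had +0.98 and +0.91 (adjusted p = 0.664 and 0.630).

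**Figure D5:**
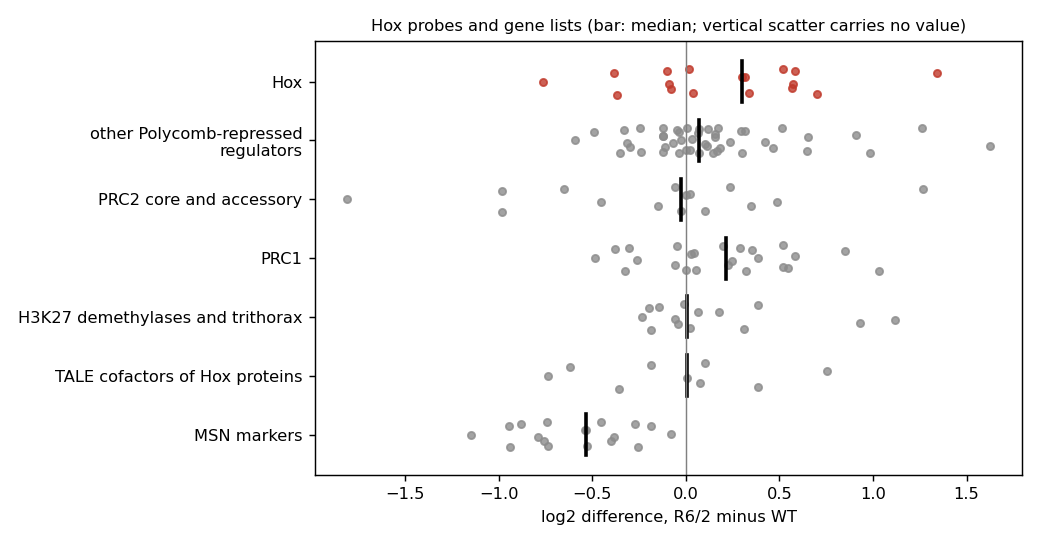
Difference R6/2 minus WT (log2) of each tested Hox probe (red) and of each tested gene of 6 lists (grey), with the median of each list as a bar. The Hox median is +0.30 and that of the other Polycomb-repressed regulators +0.07, while all 18 MSN markers lie below 0.

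The sorted cells were checked against marker genes. All 18 MSN markers were above background, all had negative differences (median -0.54), and 9 had an unadjusted p under 0.05 for a lower level, against 3.05% of all tested probes, none after adjustment. Their summed scaled intensity was between 897 and 1006 in R6/2, against between 1279 and 1527 in WT. Scn4b, the gene of the reporter used in the sort, had a difference of -1.15 (adjusted p = 0.552), and mouse Htt, whose probe does not check the human transgene, +0.27 (adjusted p = 0.865). Of the 8 progenitor and neuroblast markers, 7 were tested, 5 positive and 2 negative with a median of +0.30 (+0.03 without WT replicate 1), and a summed intensity of 7.35 to 11.04 in R6/2, against 5.10 to 9.24 in WT. Of these, 2 were higher at an unadjusted p under 0.05, against 3.97% of all tested probes: Dcx, of migrating neuroblasts, at +1.18 without overlap (adjusted p = 0.485) and Sox2, of neural stem cells, at +1.20 with overlap (adjusted p = 0.708). Without WT replicate 1, 4 of the 7 were positive and 3 negative. Dcx was then at +1.25, Sox2 at +0.83 and Dlx1, of the same list, at -1.33. The 7 tested oligodendrocyte and precursor markers all had negative differences (median -0.82), with sums of 6.47 to 14.0 in R6/2, against 6.76 to 41.7 in WT. Astrocyte markers summed to 2.14 to 5.63 in R6/2 and 2.15 to 5.62 in WT, microglia markers to 26.6 to 33.1 in R6/2 and 21.3 to 32.4 in WT, endothelial and mural markers to 0.56 to 1.03 in R6/2 and 0.48 to 0.91 in WT, interneuron markers to 2.91 to 12.8 in R6/2 and 2.64 to 5.73 in WT, and cortical glutamatergic markers to 0.57 to 1.15 in R6/2 and 0.64 to 0.78 in WT. Such sums weigh the brightest gene of a list most and do not compare cell types. The highest mean level (log2) was 4.54 among microglia markers and -0.14 among astrocyte markers. Of the 8 endothelial and mural markers, 5 were tested and 1, Kcnj8 of mural cells, was above background on no array. Of the 8 interneuron markers, 6 were tested and 1, Calb2, was above background on none. Among the 6 cortical glutamatergic markers, 2 were tested and 3 were above background on none, Slc17a6 and Neurod6 among them. Fewer MSNs among the sorted cells and less of these transcripts per cell cannot be told apart, and the part of cell composition in the Hox values was not tested.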

How the data were processed

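Per the file headers, each deposited scanner file gives the intensity of every spot as read by Agilent Feature Extraction (version 10.7.3.1), background-subtracted and detrended by the authors' software, with probe coordinates on mm9. The deposited whole-series table gives the authors' log2 values, which match log2 of the raw intensity over a constant near the array's 75th percentile, and their p-value, corrected p-value and linear fold per probe; per the file headers its test is an unpaired t-test. These log2 values entered an alternative only.

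Here log2 of the processed intensity was used, without outlier spots, as the mean over a probe's spots minus the array's 75th percentile of non-control probes. A probe was tested if well above background on 4 or more of the 8 arrays (41379 of 55681). Genotypes were compared by lmFit and eBayes of limma 3.58.1 (R 4.3.3), as a two-sided test at 0.05 with p-values adjusted by Benjamini-Hochberg across every tested probe, a procedure tested on simulated data. The number of arrays, 4 per genotype, limits the precision. A garbled line (1) of R6/2 replicate 3 was not read. Same-numbered arrays of the 2 genotypes did not deviate together (correlations of -0.05 to 0.02), and the main test did not pair them. With 4 arrays per genotype, these correlations cannot exclude a pairing. List genes were matched by accession or symbol (RefSeq, GRCm38.p6) and represented by their tested probe with the highest mean level. Probes with values for every array were those with an unadjusted p under 0.05, those without overlap between genotypes, the 2 with the highest mean level per cluster and those above background on at least 3 more arrays of 1 genotype; of each list, up to 3 genes with the smallest p, plus Ezh1, Ezh2, Eed, Suz12, Scn4b and Htt. Hoxd1 and Hoxd4 were added after their values were seen. Members and lists were chosen with earlier results of these data known. Alternatives covered background correction, scaling, filters, the test, array weights, a replicate block and leaving out each array. Some items of the files are not reported here.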

Additional observations from a re-analysis of the deposited data

Results flagged for a closer look

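Among 38 sets of 4 arrays of 1 genotype examined for an array far from the rest, 1 (2.63%) was marked, where chance marks about 1 in 20. It was the Hoxc5 probe in R6/2, where replicate 4 was at 0.63 and the nearest of the other R6/2 arrays at -0.44, a gap of 0.8292 of the whole range. The same array is the only one on its slide, and it had the largest share of probes above background of the 8 arrays, 78.8%.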

How the results depend on the processing

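The count of Hox probes at an adjusted p under 0.05 was 0 under every alternative run, with the lowest adjusted p at 0.453 under array weights, and the median Hox difference ranged from -0.03 (probes above background on all 8 arrays) to +0.46 (without WT replicate 2). The count over all probes, 1, was 8 with normexp, 8 with array weights, 7 with the filter on all 8 arrays, 2 with quantile normalization, 0 with the t-test, 0 with the replicate block and 15 with a common floor, chosen after seeing the data; it ranged from 0 to 3 when each array was left out, with 3 without WT replicate 1. Hox probes above background numbered 4 when all 8 arrays were required and 30 of 44 by the software's weaker mark for a significant signal, which 89.0% of all probes reached. Of 200 values of the named Hox probes under alternatives, 5 turned: Hoxd11 to -0.037 with normexp, Hoxc5 to -0.11 with array weights, -0.25 without R6/2 replicate 4 and -0.077 without WT replicate 1 (its range over the arrays left out was -0.25 to 0.18), and Hoxc8 to -0.021 with the common floor. Under that floor every array of the first Hoxa13 probe and of Hoxc12 and Hoxd11 stood at the floor, so their differences were 0.00. For Hoxc8 every array but WT replicate 2 stood there. The replicate block changed no call of a Hox probe. Other causes were not tested. Signals this near background, and 4 arrays per genotype, limit what could be detected in Hox genes.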
